A study of Homo sapiens with 10 samples.

Results

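The genes described here are 10 keratins, taken by gene symbol from the 23426 genes that had a value in each of 10 RNA sequencing samples. The basal keratins were KRT5, KRT6A, KRT6B, KRT14, KRT16 and KRT17, and the luminal keratins were KRT7, KRT8, KRT18 and KRT19. The samples came from 2 established human breast cancer cell lines, MDA-MB-468 (MDAMB468 in the labels, subtype basal) and ZR75-1 (subtype luminal). Cells of each line were harvested after 6 h in DMSO, the solvent, or in PKC412 (midostaurin, an inhibitor of many kinases) at 1 µM, the dose in the labels. The study's figure legends give a lower dose for the same treatment. Each line had 2 DMSO and 3 PKC412 samples. No genetic change was made to the cells of any group, as far as the labels say. Each subtype is represented by 1 line, so that subtype and line cannot be told apart. Nothing in the labels says that the samples of a group were separate cultures, and the p-values given here then measure only the spread between these samples, which may be technical. In bulk RNA, fewer cells that express a gene and less of its RNA per cell cannot be told apart.

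Keratins are the intermediate filament proteins of epithelial cells. An acidic type I keratin (here KRT14, KRT16, KRT17, KRT18 and KRT19) always assembles with a basic type II keratin (here KRT5, KRT6A, KRT6B, KRT7 and KRT8). KRT8 and KRT18 form the filaments of simple epithelia and of the luminal cells of the mammary duct, where KRT7 and KRT19 join them. KRT5 and KRT14 form those of the basal cell layer, and KRT6A, KRT6B, KRT16 and KRT17 are known for their induction in wounded and hyperproliferating epithelium. In breast pathology KRT5, KRT14 and KRT17 serve as markers of basal-like tumours.

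The genes lie in the 2 keratin clusters of the genome. On GRCh38, the build of the annotation used here, all 5 type II genes and the type I gene KRT18 were on chromosome 12, from KRT7 (chr12:52232520-52252186, plus strand) to KRT18 (chr12:52948871-52952901, plus strand). The other type I genes were on chromosome 17, from KRT19 (chr17:41523617-41528308, minus strand) to KRT17 (chr17:41619441-41624842, minus strand). Keratin genes resemble each other and have copies elsewhere, and the value of such a gene depends on how reads were divided. Of all stretches of 50 bases in the coding transcripts of a gene, the share that also occurred in a transcript of another gene was 39.1% for KRT6A, 47.1% for KRT6B, 24.0% for KRT18, 23.8% for KRT14, 19.9% for KRT16, 13.8% for KRT8 and 12.2% for KRT17. It was 3.24% for KRT5, 1.64% for KRT19 and 0.992% for KRT7. The annotation held 67 pseudogenes named for KRT18 and 50 named for KRT8, against 8 for KRT17, 6 for KRT16 and 5 for KRT19.

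KRT6A, KRT6B and KRT6C shared 1 run of 269 identical bases in exon 1, all of it coding (chr12:52492773-52493041 in KRT6A, chr12:52451663-52451931 in KRT6B and chr12:52473322-52473590 in KRT6C, minus strand). A fragment that lies within the run cannot be given to 1 of the 3 genes. It is shown with the best matching stretch of KRT5 (chr12:52519866-52520134, exon 1, minus strand), which matched at 157 of the 269 bases (58.4%), and capitals mark the bases in which KRT5 differs.
KRT6A, KRT6B and KRT6C: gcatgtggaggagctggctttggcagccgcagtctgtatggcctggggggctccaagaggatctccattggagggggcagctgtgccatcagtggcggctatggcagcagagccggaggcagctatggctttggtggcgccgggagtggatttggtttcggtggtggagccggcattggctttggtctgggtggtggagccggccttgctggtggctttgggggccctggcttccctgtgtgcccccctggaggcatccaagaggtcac
KRT5: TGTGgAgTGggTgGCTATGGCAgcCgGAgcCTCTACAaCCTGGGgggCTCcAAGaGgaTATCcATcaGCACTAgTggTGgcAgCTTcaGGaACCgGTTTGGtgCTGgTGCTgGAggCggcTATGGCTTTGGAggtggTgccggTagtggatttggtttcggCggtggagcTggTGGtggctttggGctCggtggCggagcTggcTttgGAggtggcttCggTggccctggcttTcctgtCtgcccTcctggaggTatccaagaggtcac

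A pair of microRNA rows lies inside pseudogene copies of luminal keratins. MIR492 (chr12:94834398-94834513, plus strand, 116 bases) is inside KRT19P2, a processed copy of KRT19, and MIR622 (chr13:90231182-90231277, plus strand, 96 bases) is inside KRT18P27, a processed copy of KRT18. The MIR492 hairpin matched 108 of 116 bases of the KRT19 transcript (93.1%), with a longest identical run of 41 bases. In KRT19 these bases were coding and spanned the junction of exons 1 and 2, while in KRT19P2 they are not interrupted. In the hairpin, capitals mark the mature microRNA. In the KRT19 stretch, capitals mark the bases that differ from the hairpin. These sequences are shown because they are alike. Whether reads of KRT19 mRNA were placed on the MIR492 row was not tested.
MIR492: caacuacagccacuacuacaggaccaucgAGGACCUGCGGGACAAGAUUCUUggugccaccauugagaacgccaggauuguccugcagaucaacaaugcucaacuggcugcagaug
KRT19: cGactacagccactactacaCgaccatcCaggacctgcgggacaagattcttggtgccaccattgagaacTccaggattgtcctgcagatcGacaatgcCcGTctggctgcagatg
The mature microRNAs (RefSeq, GRCh38.p14) are 23 and 21 bases long, and each occurred without a mismatch in the mRNA of its keratin, hsa-miR-492 in KRT19 and hsa-miR-622 in exon 5 of KRT18. Capitals mark the seed, bases 2 to 8, and the seeds differ.
hsa-miR-492: aGGACCUGcgggacaagauucuu
hsa-miR-622: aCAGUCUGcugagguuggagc

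Values are FPKM, the fragments of a gene scaled by its length and by the size of the library, as the authors computed them. The FPKM of all genes summed to between 599228 and 835069 per sample. The number of reads is unknown, and the precision of a value comes only from the spread between samples. The labelled subtypes were checked with markers. Of 10 luminal markers, such as the estrogen receptor ESR1 and its partners GATA3 and FOXA1, 9 were lower in MDA-MB-468 than in ZR75-1 in DMSO and 1 (PGR) did not pass the test. Of 10 basal-like markers, 8 had enough signal to test, and of these 6 were higher in MDA-MB-468, CDH3 was lower and MIA did not pass. ID4 and SFRP1, among the 6, reached the limit for testing, a mean above 0.1 FPKM in a group, through MDA-MB-468 alone. Both could only come out higher. PGR reached the limit through ZR75-1 alone. Over all genes tested, 15.9% were lower and 26.5% higher in MDA-MB-468 in DMSO. TP63, the factor that defines basal cells of stratified and glandular epithelia, was at most 0.0723 FPKM in any sample of either line, and SOX10 was listed at 0 in 9 of 10 samples, so these defining basal markers were absent or nearly so from the line labelled basal. Of 13 markers of fibroblasts, leukocytes and endothelium only COL1A1, CD14 and PECAM1 passed the limit for testing. The summed level of the leukocyte markers was 20.2 to 23.3 FPKM in MDA-MB-468 in DMSO and 11.7 to 13.7 in PKC412, nearly all of it CD14, while PTPRC was at most 0.0651 FPKM. That of the fibroblast markers was 2.26 to 2.77 FPKM in ZR75-1 in DMSO and 6.71 to 11.2 in PKC412, nearly all of it COL1A1, and was 1.58 or less in MDA-MB-468. That of the endothelial markers was at most 1.00 FPKM. Their part in the keratin results was not tested.

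The first question was which keratins set the lines apart. In DMSO all 6 basal keratins and KRT7 were higher in MDA-MB-468, KRT8 and KRT18 were higher in ZR75-1, and KRT19 had the higher mean in ZR75-1 but did not pass the test. Differences are on the log2(FPKM + 1) scale, MDA-MB-468 minus ZR75-1, and were tested with limma over 16071 genes at an adjusted p of 0.05. In DMSO 9 of 10 keratins passed (7 higher and 2 lower in MDA-MB-468), where 42.4% of all genes tested passed (26.5% higher and 15.9% lower). In PKC412 10 of 10 passed (7 higher and 3 lower), where 58.6% of all genes passed (37.0% higher and 21.6% lower). The median difference was 7.28 for the basal and -0.87 for the luminal keratins in DMSO, beside 0.11 over all genes. For each of the 10 keratins the 2 lines had no overlapping samples, where 69.6% of all genes did not overlap in DMSO (42.3% higher and 27.3% lower) and 64.4% in PKC412 (40.3% higher and 24.2% lower). KRT6A, KRT6B and KRT14 reached the limit for testing, a mean above 0.1 FPKM in a group, through MDA-MB-468 alone and had to differ, so the counts describe these genes and support nothing beyond their levels.

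**Figure D1:**
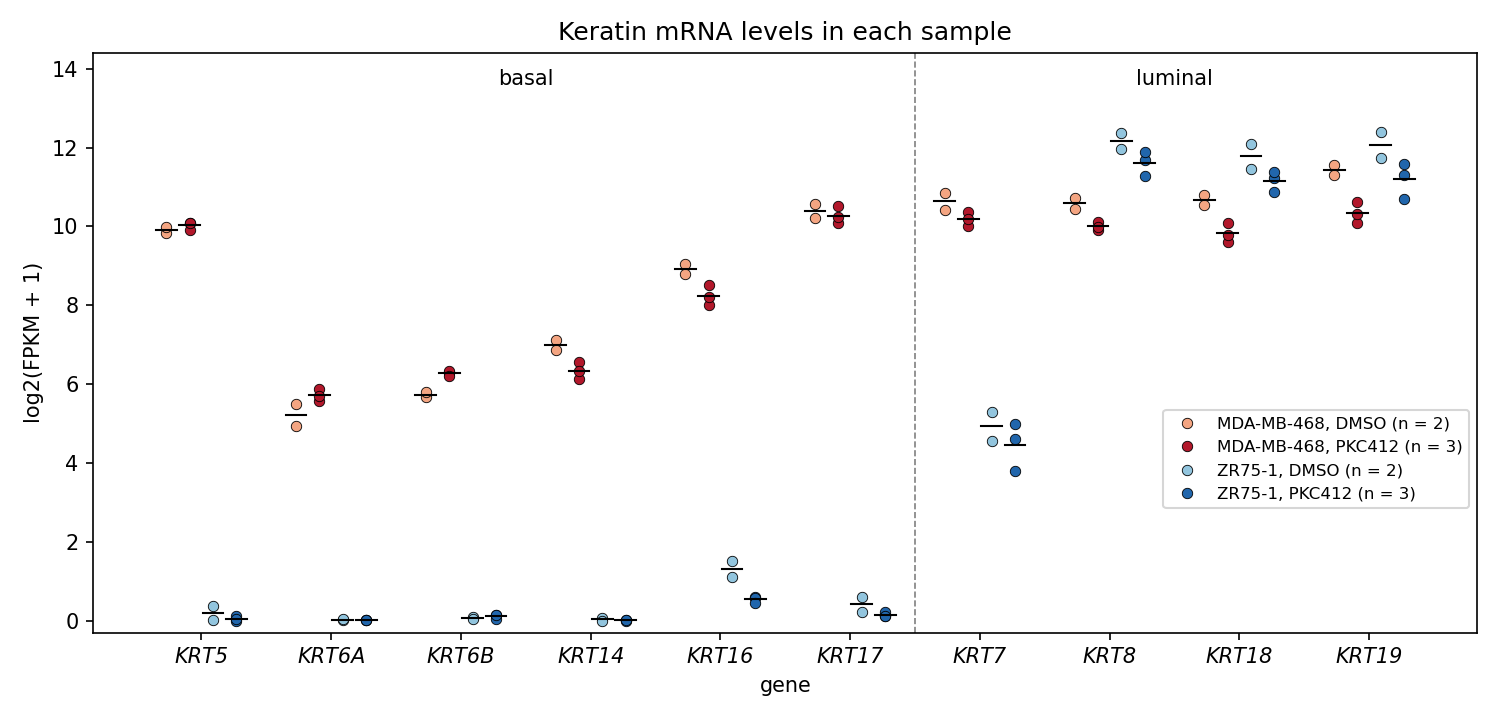
Level of each keratin on the log2(FPKM + 1) axis, 1 point per sample, with a bar at the group mean. The basal keratins of ZR75-1 lie below 2 on this axis in every sample while those of MDA-MB-468 lie above 4, and for KRT8, KRT18 and KRT19 the ZR75-1 points lie above those of MDA-MB-468 under the same agent.

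KRT5, the type II keratin of basal cells, was at 919 and 1019 FPKM in MDA-MB-468 in DMSO and at 1091, 964 and 1086 in PKC412. In ZR75-1 it was at 0.287 and 0.0123 in DMSO and at 0, 0.0883 and 0.0295 in PKC412. KRT5 was thus among the 127 highest genes of MDA-MB-468 by mean FPKM, and at the edge of detection in ZR75-1. The difference was 9.73 ± 0.14 (SE) in DMSO and 9.98 ± 0.11 in PKC412, with adjusted p-values of 1.6e-08 and 2.3e-09. KRT14, its type I partner in basal cells, was much lower than KRT5 in MDA-MB-468, at 138 and 115 FPKM in DMSO and 69.5, 93.1 and 80.3 in PKC412. In ZR75-1 no sample was above 0.0551 FPKM. The difference in KRT14 was 6.95 ± 0.16 in DMSO and 6.33 ± 0.13 in PKC412.

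KRT17, a type I keratin of basal-like tumours and of injured epithelium, was the highest of the basal group in MDA-MB-468, at 1523 and 1189 FPKM in DMSO and 1083, 1461 and 1202 in PKC412. Its 5 values in ZR75-1 lay between 0.0845 and 0.531. Its difference was 9.98 ± 0.19 in DMSO and 10.1 ± 0.16 in PKC412, near that of KRT5, and which of these genes differed more depended on the pseudocount. KRT16, also type I and known from hyperproliferating epidermis, was at 533 and 444 FPKM in MDA-MB-468 in DMSO. It was the basal keratin with the most signal in ZR75-1, at 1.88 and 1.14 FPKM in DMSO, and the difference was 7.62 ± 0.20. Its type II partners were the least abundant of the group in MDA-MB-468: KRT6A was at 29.9 and 44.4 FPKM in DMSO and KRT6B at 49.98 and 54.6. Neither rose above 0.107 FPKM in ZR75-1. The differences in DMSO were 5.20 ± 0.20 for KRT6A and 5.66 ± 0.12 for KRT6B. With KRT6A, KRT6B and KRT6C summed, an alternative chosen after the data were seen, the difference in DMSO was 6.46.

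KRT7 was grouped with the luminal keratins and followed the basal ones. This type II keratin of simple and ductal epithelium was at 1838 and 1377 FPKM in MDA-MB-468 in DMSO and at 38.6 and 22.6 in ZR75-1, a ratio of means of 52.6. In PKC412 its values were 1032, 1326 and 1175 against 23.6, 30.6 and 13.0, again a ratio of 52.6. The log2 differences were 5.70 ± 0.39 and 5.73 ± 0.32 (adjusted p = 1.1e-05 and 2.2e-06). Unlike the 6 basal keratins, KRT7 was clearly present in every ZR75-1 sample. Its span overlaps that of KRT86 by 2887 bases on the same strand, and KRT86, a hair keratin, was at 15.4 to 20.7 FPKM in MDA-MB-468 and at 0.647 to 1.51 in ZR75-1.

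KRT8 and KRT18, the primary pair of simple epithelium, were abundant in both lines and higher in ZR75-1. KRT8 was at 1698 and 1396 FPKM in MDA-MB-468 in DMSO and at 5272 and 4009 in ZR75-1, where the mean was 3.00 times as high (log2 difference -1.58 ± 0.24, adjusted p = 0.0011). In PKC412 it was at 959, 1114 and 1006 against 3267, 3789 and 2473 (-1.61 ± 0.20, adjusted p = 2.1e-04). The lines did not overlap under either agent. KRT18 was at 1769 and 1503 FPKM against 4386 and 2827 in DMSO (-1.11 ± 0.27, adjusted p = 0.012). Leaving out replicate 2 of MDA-MB-468 in DMSO took the adjusted p to 0.079, and leaving out replicate 1 of ZR75-1 in DMSO took it to 0.074. In PKC412 KRT18 was at 777, 1096 and 887 against 2388, 2646 and 1889 (-1.33 ± 0.22, adjusted p = 0.0012). The genes lie next to each other and their spans overlap by 1084 bases on opposite strands. No source used here says whether the library kept the strand.

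KRT19, a type I keratin that ends without the tail domain of the others, was the highest keratin of MDA-MB-468 in DMSO, at 3028 and 2546 FPKM, beside 5432 and 3413 in ZR75-1. The samples did not overlap but the difference, -0.63 ± 0.34, did not pass the test (adjusted p = 0.18). It was -0.30 without replicate 1 of ZR75-1 in DMSO and -0.97 without replicate 2 (adjusted p = 0.62 and 0.096). After adjustment of the FPKM for GC content and transcript length it was -0.53 and passed (adjusted p = 0.0042). In PKC412 KRT19 was at 1096, 1583 and 1271 against 2518, 3053 and 1665, a difference of -0.85 ± 0.28 that passed (adjusted p = 0.031). That call was lost without replicate 1 or 3 of MDA-MB-468 in PKC412 (adjusted p = 0.099 and 0.083) and without replicate 1 or 2 of ZR75-1 in PKC412 (0.087 and 0.095).

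**Figure D2:**
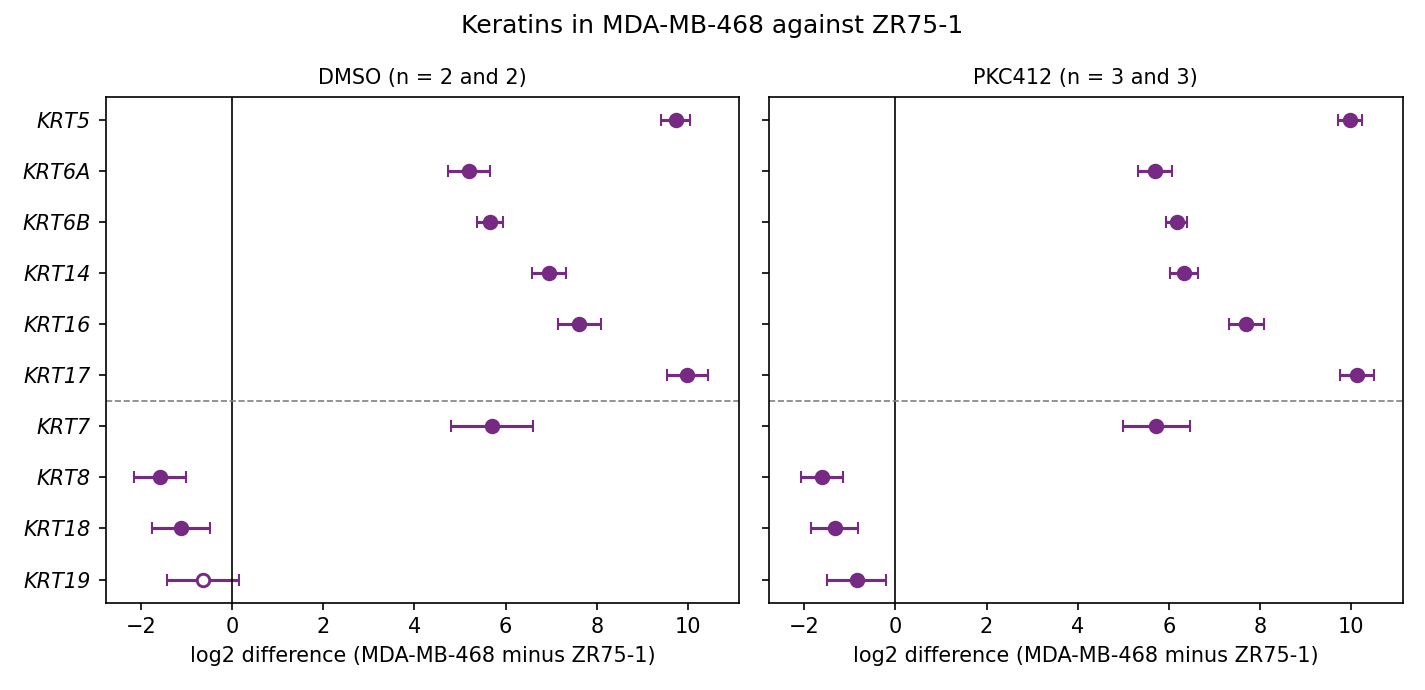
Difference in log2(FPKM + 1), MDA-MB-468 minus ZR75-1, for each keratin in DMSO and in PKC412, with the 95% confidence interval of the limma fit; filled points passed the test at an adjusted p of 0.05. The basal keratins and KRT7 lie between 5.20 and 10.1, and KRT8, KRT18 and KRT19 lie between -1.61 and -0.63.

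The order of the levels differed between the lines. In MDA-MB-468 in DMSO KRT19 was first by mean FPKM, above every sample of KRT18. The next 4, KRT18, KRT7, KRT8 and KRT17, had means of 1356 to 1636 FPKM and each overlapped the next. KRT5, KRT16, KRT14, KRT6B and KRT6A followed without overlap between neighbours. In ZR75-1 in DMSO KRT8, KRT19 and KRT18 came first, with means of 4640, 4422 and 3606 FPKM and overlap between neighbours. KRT7 followed at 30.6 and KRT16 at 1.51, without overlap, and the last 5 keratins, all basal, had means of 0.346 FPKM or less and overlapped. In PKC412 the first 6 places of MDA-MB-468 were KRT19, KRT17, KRT7, KRT5, KRT8 and KRT18, with means from 1317 down to 920 FPKM and overlap between each pair of neighbours.

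The genes whose pattern over the 10 samples was most like that of KRT5, by Pearson r of log2(FPKM + 1) among 12333 genes, were ANXA8L2 (r = 0.9998), CASP14 (0.9997), which encodes a protease of keratinocyte differentiation, and FGFBP1 (0.9997), which encodes a carrier of fibroblast growth factors. All 3 were at or near 0 in ZR75-1, with means of 0.149 FPKM or less. Such likeness is common, since the samples fall in 2 lines: 453 genes had an r above 0.99 with KRT5. The nearest to KRT18 were CCDC56 (0.9960), RPS26P11 (0.9952) and MIR622 (0.9931), and 8 genes were above 0.99.

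The second question was what 6 h of PKC412 did to the keratins of MDA-MB-468. No keratin passed the test there, while 1.26% of all genes did. At an unadjusted p of 0.05 there were 7 of 10, beside 16.4% of all genes. In 8 of 10 keratins the PKC412 samples did not overlap the DMSO samples (KRT6A and KRT6B higher, KRT14, KRT16, KRT7, KRT8, KRT18 and KRT19 lower), beside 55.9% of all genes (39.6% higher and 16.3% lower). The median difference, PKC412 minus DMSO, was 0.00 for the basal and -0.71 for the luminal keratins, beside 0.11 over all genes.

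KRT6B had the smallest p-value of the 10. It was at 49.98 and 54.6 FPKM in DMSO and at 77.1, 79.3 and 73.5 in PKC412, a difference of 0.54 ± 0.11 (adjusted p = 0.073). It passed under 4 alternatives: a pseudocount of 5, no limit on low values, a fit without the trend, and adjustment for GC content and length (adjusted p = 0.022, 0.040, 0.019 and 0.020). KRT6A was at 29.9 and 44.4 FPKM in DMSO and at 58.2, 46.3 and 51.3 in PKC412 (0.49 ± 0.18, adjusted p = 0.26). KRT6C, which shares the printed run with both, was at 3.996 and 5.64 FPKM in DMSO and at 12.3, 7.88 and 11.2 in PKC412. The sum of the 3 differed by 0.56 (adjusted p = 0.096), in the same direction as each of its parts. KRT5, the other type II basal keratin, had overlapping samples and a difference of 0.11 ± 0.13, with a 95% interval from -0.18 to 0.41. It was -0.01 after rescaling by median ratios.

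The type I basal keratins had values in the other direction or near 0. KRT14 was at 138 and 115 FPKM in DMSO and at 69.5, 93.1 and 80.3 in PKC412, a difference of -0.64 ± 0.15 (adjusted p = 0.11). KRT16 was at 533 and 444 FPKM in DMSO and at 256, 363 and 298 in PKC412 (-0.68 ± 0.18, adjusted p = 0.16). In both genes every PKC412 sample was below every DMSO sample. KRT17 had overlapping samples and a difference of -0.12 ± 0.18, which was 0.29 after adjustment for GC content and length and 0.06 without replicate 1 of DMSO. Among the copies of KRT16, KRT16P2 was at 1.36 and 1.28 FPKM in DMSO and at 0.962, 0.876 and 0.855 in PKC412, and KRT16P3 was at 2.84 and 2.67 against 1.72, 2.01 and 2.24.

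The luminal keratins of MDA-MB-468 had lower means in PKC412. KRT19 was at 3028 and 2546 FPKM in DMSO and at 1096, 1583 and 1271 in PKC412, a difference of -1.09 ± 0.31 (adjusted p = 0.18). After adjustment for GC content and length it was -0.63 and passed (adjusted p = 0.022). KRT18 differed by -0.84 ± 0.25 and KRT8 by -0.59 ± 0.22 (adjusted p = 0.20 and 0.27). KRT7 differed by -0.44 ± 0.36, with a 95% interval from -1.26 to 0.38, although its samples did not overlap. It was 0.03 after the same adjustment with the replicate number as a block.

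The dependence of the values on GC content moved with the agent in MDA-MB-468. Its slope, in log2 units per 10 percentage points of GC, came to 0.37 and 0.06 under DMSO against -0.29, -0.02 and -0.12 under PKC412, without overlap, and the keratin transcripts have a GC content of 53.4 to 62.9%. In ZR75-1 the slopes overlapped (0.31 and -0.19 in DMSO, -0.11, 0.34 and -0.36 in PKC412). With the adjustment 2 keratins passed in MDA-MB-468, KRT6B higher and KRT19 lower, and 2 in ZR75-1, KRT16 and KRT19, both lower.

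**Figure D3:**
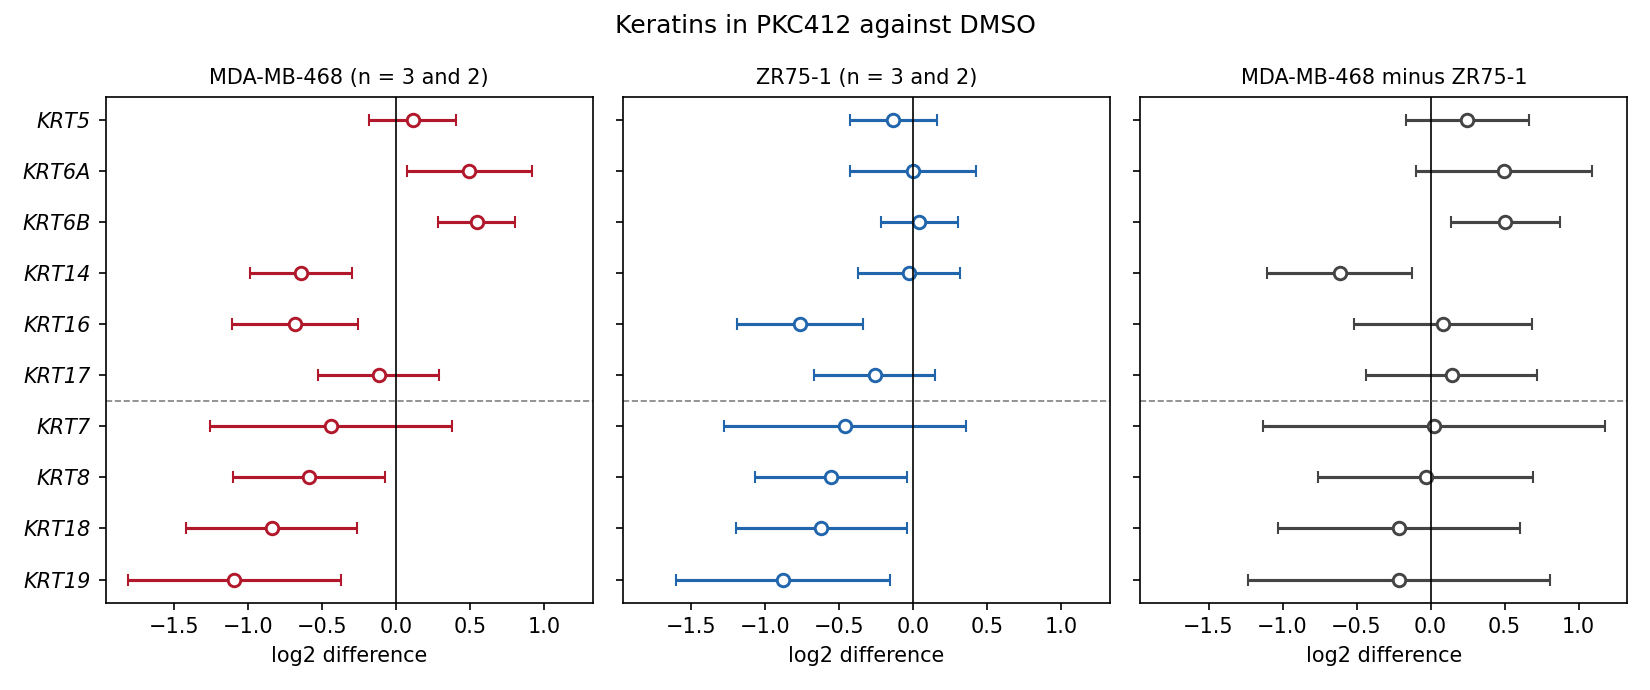
Difference in log2(FPKM + 1), PKC412 minus DMSO, in MDA-MB-468, in ZR75-1 and as the difference between those effects, with the 95% confidence interval of the limma fit. All points are open because no keratin passed at an adjusted p of 0.05; the intervals of KRT6A and KRT6B lie above 0 in MDA-MB-468 and those of KRT8, KRT18 and KRT19 lie below 0 in both lines.

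In ZR75-1 no keratin passed the test, while 0.946% of all genes did. At an unadjusted p of 0.05 there were 4 of 10, beside 11.2% of all genes. The same 4, KRT16, KRT8, KRT18 and KRT19, had every PKC412 sample below every DMSO sample, beside 6.98% of all genes for that direction, 14.8% for the other and 21.7% for both. KRT19 was at 5432 and 3413 FPKM in DMSO and at 2518, 3053 and 1665 in PKC412 (-0.88 ± 0.31, adjusted p = 0.37). KRT18 was at 4386 and 2827 against 2388, 2646 and 1889 (-0.62 ± 0.25, adjusted p = 0.41), and KRT8 at 5272 and 4009 against 3267, 3789 and 2473 (-0.56 ± 0.22, adjusted p = 0.41). KRT7 overlapped, at 38.6 and 22.6 against 23.6, 30.6 and 13.0 (-0.46 ± 0.36). KRT16 was low but measurable, at 1.88 and 1.14 FPKM in DMSO and at 0.521, 0.491 and 0.373 in PKC412. Its difference was -0.77 ± 0.18 (adjusted p = 0.16), and with a pseudocount of 0.1 it was -1.49 and passed (adjusted p = 0.038). The other 5 basal keratins were at 0.531 FPKM or less in every sample and their groups overlapped, so no change in them was detectable at these levels.

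The effects of PKC412 in the lines were then compared with each other. For no keratin did the difference between the effects pass the test, while it did for 0.268% of all genes. At an unadjusted p of 0.05 there were 2 of 10, KRT6B (0.50 ± 0.16, adjusted p = 0.47) and KRT14 (-0.61 ± 0.21, adjusted p = 0.54), beside 7.05% of all genes. Both were at 0.107 FPKM or less in every ZR75-1 sample. For the luminal keratins the differences between the effects were 0.02 for KRT7, -0.03 for KRT8, -0.22 for KRT18 and -0.21 for KRT19. Their 95% intervals were wide, from -1.13 to 1.18 for KRT7 and from -0.76 to 0.69 for KRT8, so unequal effects of that size were not detectable.

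The make-up of the keratin mRNA can be read from these values as a share of the FPKM of the 10 genes. In MDA-MB-468 the basal keratins made up 27.7 and 29.6% in DMSO and 40.5, 37.0 and 39.1% in PKC412. The groups did not overlap. Over the samples of this line the basal share rose in the order in which the GC slope given above fell. The shares were not adjusted for GC content, and its part in them was not tested. The sum of the basal keratins was 2866 to 3193 FPKM in DMSO and 2634 to 3007 in PKC412, while that of the luminal keratins was 6823 to 8333 and 3865 to 5118. In ZR75-1 the basal share was between 0.00844 and 0.0187% in all samples, and the luminal sum was 15128 and 10271 FPKM in DMSO and between 6040 and 9519 in PKC412. The 10 genes together made up 1.08 to 1.51% of the FPKM of all genes in MDA-MB-468 and 0.99 to 1.81% in ZR75-1.

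**Figure D4:**
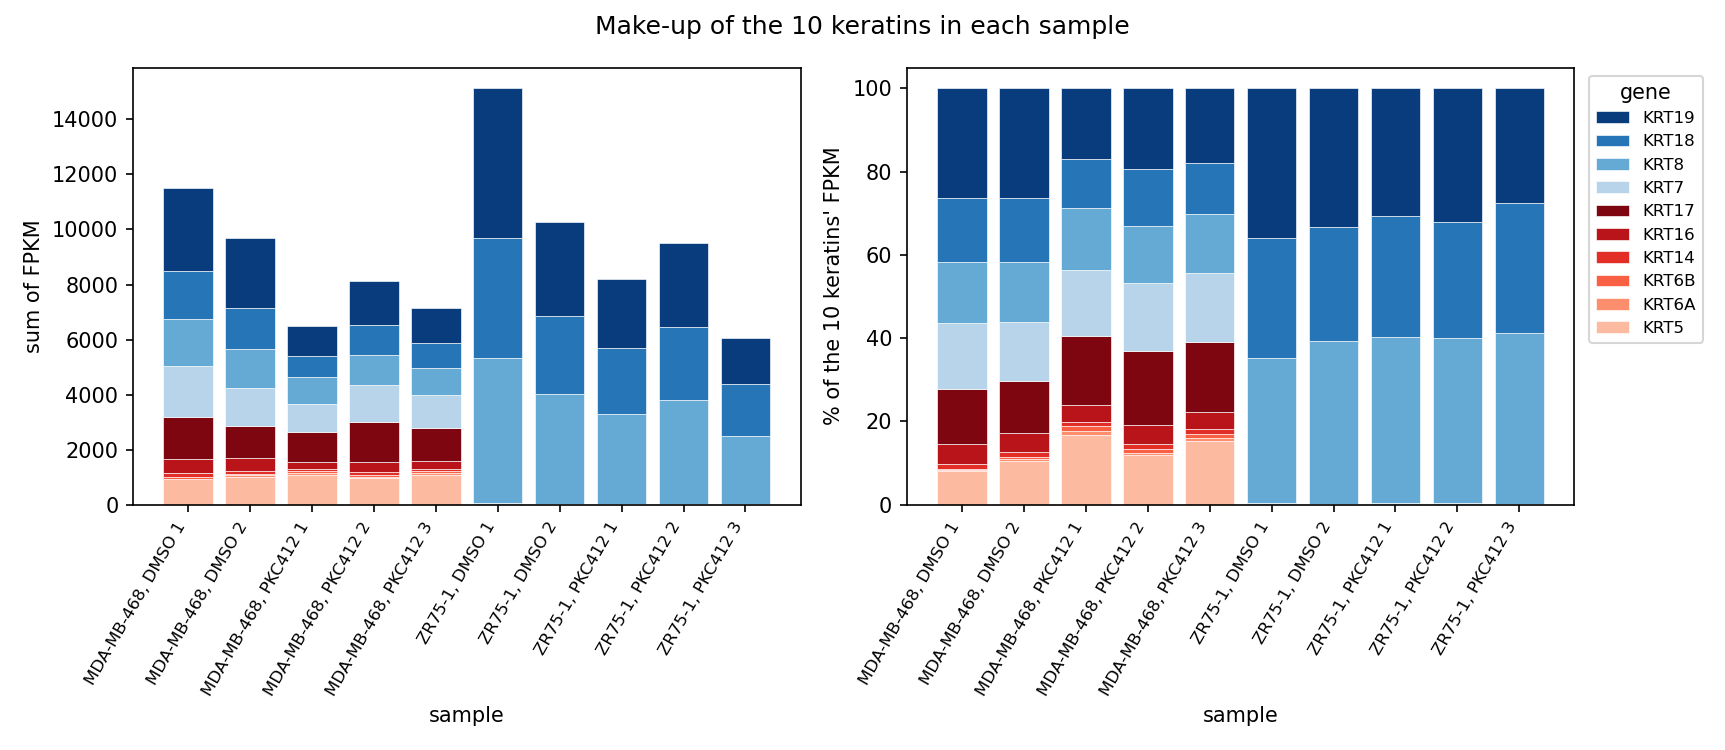
FPKM of the 10 keratins stacked for each sample (left) and as a percentage of their sum (right), basal keratins in red and luminal keratins in blue. In MDA-MB-468 the red part is 27.7 and 29.6% in DMSO and between 37.0 and 40.5% in PKC412, without adjustment for GC content. In ZR75-1 it is too small to see.

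Among the basal and luminal keratins described here, type I and type II were not equal in FPKM. Other keratins were left out of both sums, among them KRT81, at 596 to 1001 FPKM in MDA-MB-468. How they would change the ratio was not tested, so it describes the chosen genes only. The ratio of type I to type II was 1.54 and 1.49 in MDA-MB-468 in DMSO, and 1.02, 1.30 and 1.10 in PKC412. In ZR75-1 it was 1.85 and 1.55 in DMSO and 1.49, 1.49 and 1.43 in PKC412, so that in both lines each PKC412 sample was below each DMSO sample. The pair KRT18 to KRT8 had a ratio of 1.04 and 1.08 in MDA-MB-468 in DMSO, 0.811 to 0.984 in PKC412, and 0.699 to 0.832 in ZR75-1. KRT14 reached only 0.113 to 0.151 of KRT5 in DMSO and 0.0637 to 0.0965 in PKC412 in MDA-MB-468. KRT16 exceeded the sum of KRT6A and KRT6B in that line 6.67 and 4.48 times in DMSO and 1.89 to 2.89 times in PKC412. These ratios rest on the same values as the comparisons of single genes and were not tested. They were not adjusted for GC content. In MDA-MB-468 the GC slope had the same sample order as the ratios of type I to type II and KRT14 to KRT5. The ratio of KRT16 to KRT6A and KRT6B also had that order.

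The MIR492 row held the highest mean FPKM of all 23426 genes in ZR75-1 and the second highest in MDA-MB-468. It was at 13130 and 11859 FPKM in MDA-MB-468 in DMSO and at 7320, 8065 and 7963 in PKC412, and at 19575 and 19984 in ZR75-1 in DMSO and 13011, 17958 and 10494 in PKC412. KRT19P2, the pseudogene that contains it, was at 1.44 to 5.32 FPKM in the same samples. The MIR492 values were 3.60 to 6.68 times those of KRT19, on a row of 116 bases against a transcript of 1390. Put on the length of KRT19, they came to 26.6 to 35.8% of the sum of both rows in MDA-MB-468 and 23.1 to 34.5% in ZR75-1. MIR622, found because its pattern was among the 3 most like KRT18, was at 1869 to 4163 FPKM in MDA-MB-468 and at 4510 to 10712 in ZR75-1. On the length of KRT18 it came to 10.9 to 13.1% of the sum of both rows over all samples. These shares take the annotated lengths, and the lengths by which the FPKM were scaled are unknown. In both cases they were above the part of the keratin transcript that the short row covers, so they are no measure of reads moved.

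Adding these rows back by length, also chosen after the data were seen, changed no call. This step rests on the same annotated lengths. KRT19 with MIR492 differed between the lines by -0.65 in DMSO (adjusted p = 0.13) and by -0.83 in PKC412 (adjusted p = 0.021), and between PKC412 and DMSO in MDA-MB-468 by -0.97 (adjusted p = 0.18). KRT18 with MIR622 differed by -1.11 and -1.34 between the lines (adjusted p = 0.011 and 0.0011). The values do not show which reads were placed on the short rows. That they hold reads of KRT19 and KRT18 mRNA was not tested.

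**Figure D5:**
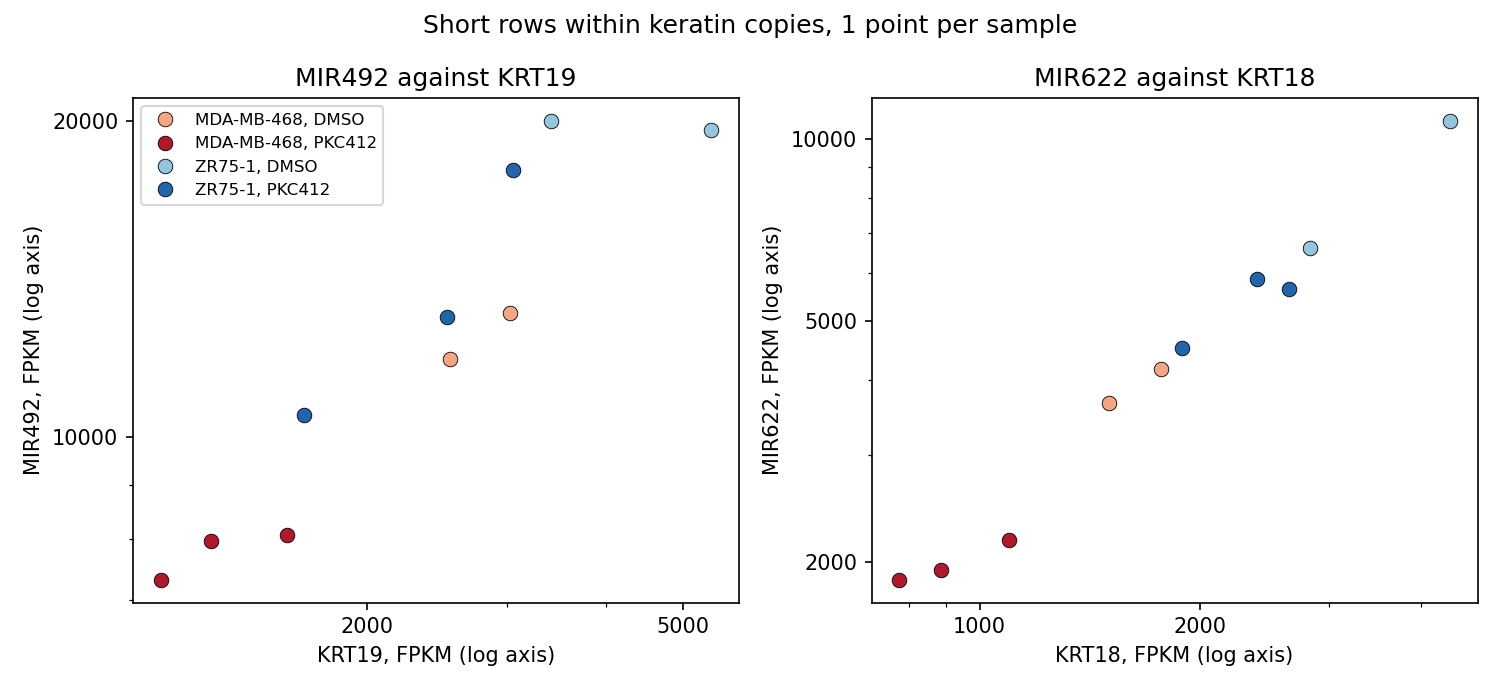
FPKM of MIR492 against KRT19 (left) and of MIR622 against KRT18 (right), 1 point per sample, both axes on a log scale. MIR622, picked for its likeness to KRT18 in these same samples, rises with KRT18 across both lines. At a like KRT19 level the ZR75-1 samples have more MIR492 than the MDA-MB-468 samples.

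Of 45 other keratin genes in the files 24 had enough signal to test. In DMSO 19 were higher in MDA-MB-468 and none lower at the adjusted threshold. Over all genes 42.4% passed in DMSO (26.5% higher and 15.9% lower). In PKC412 it was 20 and 0, where 58.6% of all genes passed (37.0% higher and 21.6% lower). Of the 24, 13 reached the limit for testing through MDA-MB-468 alone and could only come out higher; they supplied 10 of the 19 calls in DMSO and 11 of the 20 in PKC412, so the counts are a description and give no direction for the list. KRT81, a hair keratin, was at 1001 and 797 FPKM in MDA-MB-468 in DMSO and at 2.65 and 1.55 in ZR75-1 (8.19 ± 0.31). KRT23 was at 137 and 157 against 1.95 and 2.495 (5.52 ± 0.16), and KRT4, of the mucosal epithelium, at 46.8 and 55.1 against 0.519 and 0.561 (5.07 ± 0.26). The 10 keratins described here held 87.8 to 89.8% of the FPKM of all keratins in MDA-MB-468 and 99.4 to 99.7% in ZR75-1. No other keratin passed between PKC412 and DMSO in either line.

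Filaments of keratin are anchored at desmosomes through plakins. Of 14 desmosome and plakin genes tested in DMSO, 4 were higher in MDA-MB-468 and 4 lower, where 26.5% and 15.9% of all genes were. PKP1 and DSC3 reached the limit for testing through MDA-MB-468 alone and PPL and DSG3 through ZR75-1 alone, and these 4 were among the 8 called. The desmosomal plaque protein PKP3 was at 85.8 and 72.0 FPKM in MDA-MB-468 and at 33.5 and 23.1 in ZR75-1 (1.47 ± 0.23, adjusted p = 0.0011). The plakin PPL was at 0.00386 and 0 FPKM in MDA-MB-468 and at 3.87 and 5.53 in ZR75-1 (-2.49 ± 0.20, adjusted p = 2.7e-05). JUP, which links desmosomal cadherins to plakins, was also lower in MDA-MB-468, at 114 and 109 FPKM against 195 and 179. DSP, the main plakin of the desmosome, was at 11.9 and 15.9 against 2.32 and 3.66 (1.91 ± 0.60, adjusted p = 0.033), a call that was lost when any of the 4 DMSO samples was left out (adjusted p = 0.065 to 0.15), and also without replicate 3 of MDA-MB-468 in PKC412 (0.053) or replicate 1 of ZR75-1 in PKC412 (0.052). None of the 14 passed between PKC412 and DMSO in either line.

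Of 12 other intermediate filament genes tested, 7 were higher in MDA-MB-468 in DMSO and 2 lower, where 26.5% and 15.9% of all genes were. INA and NEFH, both among the 7, and DES reached the limit for testing through MDA-MB-468 alone. Vimentin (VIM), the filament protein of mesenchymal cells, was at 33.5 and 39.6 FPKM in MDA-MB-468 and at 0.1997 and 0.208 in ZR75-1 (4.96 ± 0.14, adjusted p = 1.4e-07). It was below KRT5, KRT14, KRT16 and KRT17 in that line in DMSO. BFSP1, a filament protein of the lens, was at a mean of 16.7 against 1.87 FPKM (2.63 ± 0.14), and PRPH, of peripheral neurons, at 0.716 against 8.01 (-2.37 ± 0.31). None passed between PKC412 and DMSO in either line.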

How the data were processed

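RNA from 10 samples was sequenced, 2 in DMSO and 3 in PKC412 for each line. The authors deposited FPKM per gene symbol, 1 file per sample, after sequencing and alignment. The submitters' processing notes name CASAVA 1.82, TopHat2 and the build hg19; the annotation, the counting and the handling of reads that match several genes are not given in the sources used here. FPKM are not counts: the lowest value above 0 was 2.194e-318, so no read number could be recovered and the depth is unknown. The methods describe triplicates, and 2 DMSO samples per line were analysed here.

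The test was limma 3.58.1 (R 4.3.3), applied to log2(FPKM + 1), a scale that understates the change of low genes. Each of the 4 groups had its own mean (6 residual degrees of freedom), and eBayes used a trend. Genes entered when any group mean exceeded 0.1 FPKM (16071 genes), with a Benjamini-Hochberg threshold of 0.05. An exact permutation test of 2 against 3 samples cannot reach that threshold. Alternatives were other pseudocounts and limits, median ratios, no trend, the replicate number as a block, each sample left out, and adjustment for GC content and length by polynomials of degree 3 (20638 genes, 88.1%, matched by symbol).

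Positions and sequences come from GENCODE 29 (GRCh38) and RefSeq (GRCh38.p14), not the build of the files; no genome was used. Python 3.11.15, pandas 2.3.3, numpy 2.4.6 and matplotlib 3.10.9 did the rest. The text names all 10 keratins, MIR492, keratin pseudogenes above 1 FPKM, the 3 genes most like KRT5 and KRT18, and up to 4 called genes per list and comparison; KRT6C, JUP, the marker genes and the genes said to reach the limit through 1 line alone were named after their values were seen. The keratins and lists were chosen with earlier results of these data known.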

Additional observations from a re-analysis of the deposited data

How the results depend on the processing

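Between the lines, 9 of 10 keratins passed in DMSO and 10 of 10 in PKC412, and over the alternatives the counts were 8 to 10 and 9 to 10, with no change of direction. With each sample left out in turn they were 8 to 9 and 9 to 10. In PKC412 against DMSO in MDA-MB-468, where 0 passed, 1 keratin passed with a pseudocount of 5, with no limit on low values and without the trend, and 2 passed after adjustment for GC content and length. In ZR75-1, where 0 passed, 1 passed with a pseudocount of 0.1 and 2 after that adjustment. The count was 0 in both lines and for the difference of the effects with each sample left out. The difference of the effects had 0 under every alternative.

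In PKC412 against DMSO in MDA-MB-468 the sign of KRT5 turned with median ratios (-0.013), that of KRT17 with the adjustment for GC content and length (0.29, and 0.30 with the replicate block) and that of KRT7 with the adjustment and the block (0.035). With each sample left out KRT17 ranged from -0.30 to 0.060. For the difference of the effects KRT7 turned with a pseudocount of 5 (-0.044) and with the replicate block within each line (-0.31), KRT8 with the adjustment (0.066, also with the block) and KRT19 with the adjustment (3.4e-04, also with the block). With each sample left out these differences ranged from -0.35 to 0.40 for KRT7, -0.23 to 0.16 for KRT8, -0.53 to 0.10 for KRT18 and -0.55 to 0.12 for KRT19. The adjusted p of these turned values was 0.19 or more, and their cause was not tested. Outside the keratins no named gene changed direction.

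Over all genes, PKC412 against DMSO gave 202 calls in MDA-MB-468, and 152 calls were made for ZR75-1. It was 116 and 138 with a pseudocount of 0.1, 296 and 234 after the adjustment, and with a sample left out 65 to 324 and 59 to 183. For the difference of the effects it was 43, and 27 to 104 under these alternatives other than a block or a sample left out.

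The labels number the samples. The numbers share no stated source, and deviations of same-numbered samples from their group means correlated at -0.69 and -0.61 between DMSO and PKC412 in MDA-MB-468 and at 0.12 and -0.63 in ZR75-1. Between the lines they correlated at -0.25, 0.54 and -0.0069 in PKC412 and at 0.85 in DMSO, where with 2 samples a group both pairs give the same value. Only the PKC412 comparison between the lines had 3 pairs, and these did not all correlate above 0.1. The other comparisons had 2 pairs each, too few to tell whether same-numbered samples share a batch. The main fit used no block. With the replicate block over all groups the keratin counts were 9, 10, 0, 0 and 0 for the 5 comparisons, and 23 genes passed in each line in PKC412 against DMSO. The difference of the effects then had 9. With the block within each line 0 genes passed. With the adjustment and the block the 3 counts were 68, 59 and 17. With a sample left out the difference of the effects had 16 to 64.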

Other observations

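Lists of epithelial transcription factors and of genes of the stratified and cornified epithelium, in which KRT6, KRT16 and KRT17 are also active, were measured in the same samples. Of 14 transcription factors tested, 2 were higher in MDA-MB-468 in DMSO and 5 lower, where 42.4% of all genes passed (26.5% higher and 15.9% lower). ELF5, of the former, and SOX2, of the latter, reached the limit for testing through 1 line alone. GATA3, a factor of luminal cells, was at a mean of 5.27 FPKM in MDA-MB-468 and 52.2 in ZR75-1 (-3.08 ± 0.16, adjusted p = 3.2e-06). Of 14 genes of the cornified envelope and related functions, 7 were higher and 4 lower, beside the same shares of all genes, and TGM3, of the latter, reached the limit through ZR75-1 alone. The 14-3-3 protein SFN was at 1036 and 778 FPKM in MDA-MB-468 in DMSO and at 175 and 102 in ZR75-1 (2.74 ± 0.33, adjusted p = 2.7e-04), and involucrin (IVL), a precursor of the cornified envelope, was at 10.3 and 10.4 against 0.690 and 0.732 (2.73 ± 0.14).

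In PKC412 against DMSO, where 1.26% of all genes passed in MDA-MB-468, IVL fell there to 3.79, 4.32 and 4.08 FPKM (-1.16 ± 0.12, adjusted p = 0.0056). This call held with each sample left out and was lost with the replicate block over all groups (adjusted p = 0.089). TGM1, the transglutaminase that crosslinks the envelope, fell from 4.75 and 4.78 FPKM to 2.55, 2.41 and 2.96 (-0.67 ± 0.12, adjusted p = 0.040). ZNF750 and ELF5, factors of epidermal and of alveolar differentiation, rose from 0.544 and 0.988 to 3.71, 1.92 and 2.77 FPKM (1.09 ± 0.19, adjusted p = 0.043) and from 0.180 and 0.261 to 0.820, 0.642 and 0.540 FPKM (0.45 ± 0.07, adjusted p = 0.029). The calls of TGM1, ZNF750 and ELF5 were each lost without either DMSO sample of MDA-MB-468 (adjusted p = 0.091 to 0.36), and of the 10 samples, leaving out any 1 of 10 ended the call of TGM1, 9 that of ZNF750 and 6 that of ELF5. No gene of either list passed in ZR75-1. IVL was lower in PKC412 there too, at 0.240, 0.138 and 0.179 FPKM against 0.690 and 0.732 in DMSO. TGM1 was at 0.166, 0.1875 and 0.217 against 0.398 and 0.2835. ZNF750 was higher, at 0.121, 0.0952 and 0.192 against 0.0346 and 0.0602, and ELF5 overlapped. At such levels the scale of the test understates a change.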
